A study of Mus musculus with 8 samples.

Results

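Cholesterol is built from acetyl-CoA through the mevalonate pathway, and 7 genes of this pathway are described here, namely Hmgcs1, Idi1, Fdps, Fdft1, Sqle, Lss and Cyp51. They were chosen by name, with earlier results of these data known. They are the rows of the deposited expression table that carry these symbols, and all 7 were found among its 54532 genes. Transcript levels were measured by bulk RNA-seq of the whole testis, with 1 library per mouse, in 4 controls (Sync-Spdya fl/fl, here Ctrl) and 4 mutants (Sync-Spdya cKO, here cKO). All 8 mice were on the C57BL/6J background and carried 2 floxed alleles of Spdya, which encodes the CDK activator Speedy A. The cKO mice also carried Ddx4-CreERT2, a tamoxifen-dependent Cre driven from the germ cell gene Ddx4, while the littermate controls had no Cre. Both groups received an inhibitor of retinoic acid (RA) synthesis for 7 days from postnatal day 2, then RA on postnatal day 9 (RA0) to synchronize meiosis. Both also received tamoxifen on RA7.5 and RA8.5, per the labels, and the testes were taken at RA11.5, when most germ cells are mid-late pachytene spermatocytes. The study made the comparison to ask how loss of Speedy A affects sex chromosome silencing, and the cholesterol genes were not its subject.

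The design limits what a difference between the groups can be tied to. Since the controls carried no Cre, an effect of Cre and one of the Spdya deletion cannot be told apart. The deletion was made in germ cells, while the libraries hold all cells of the testis, and in such bulk samples fewer cells of a type and less RNA per cell cannot be told apart. Spdya itself was at 21.3 ± 1.76 FPKM (fragments per kilobase of exon, scaled to the size of the library) in the Ctrl libraries and 24.1 ± 5.45 FPKM in the cKO libraries (mean ± SD, n = 4), so the gene-level value was not lower in the libraries labelled cKO. The floxed part is exon 2 alone, and a value summed over all exons does not check its loss. The names Ctrl and cKO therefore stand for the labels throughout. Ddx4 was at 169 to 259 FPKM and Hspa2, a chaperone of pachytene spermatocytes, at 253 to 451 FPKM over the 8 libraries, and 5 of 6 spermatid markers stayed under 1 FPKM in every library. The libraries held 13978342 to 19583091 fragments. Ctrl replicate 1 stood apart, with 0.464% of its fragments on mitochondrial genes against 2.20% to 3.74% in the other 7 libraries, and the fold changes of the 6 tested genes of the 7 are given with and without it.

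The mevalonate pathway begins with HMG-CoA synthase, encoded by Hmgcs1, which condenses acetoacetyl-CoA with acetyl-CoA. Idi1 interconverts the 5-carbon isoprenoid units, and Fdps joins them into farnesyl diphosphate, the branch point to dolichol, ubiquinone and prenylated proteins. Fdft1 (squalene synthase) commits farnesyl diphosphate to sterols, Sqle epoxidizes squalene, Lss closes the ring to lanosterol, and Cyp51 removes a methyl group from lanosterol. In the testis, cholesterol is the precursor of testosterone in Leydig cells and a component of germ cell membranes, and the CYP51 product is the meiosis-activating sterol FF-MAS. Transcription of the pathway is raised by the factor SREBP2 (Srebf2) when sterols are low, through sterol regulatory elements that work together with neighbouring factors such as NF-Y, which binds CCAAT boxes.

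The promoters of Hmgcs1, Idi1, Cyp51 and Lss were found in the RefSeq promoter table (GRCm38.p6), 4 of the 7 genes. The promoter of Hmgcs1 is shown because it was the gene with the highest level and held the one match to a sterol regulatory element. It covers the 250 bases before the annotated start, chr13:119690101-119690350 on the + strand. The sterol regulatory element match (TCACCCCAC) and the CCAAT box matches (ATTGG, the reverse complement of CCAAT) are in capitals.
Hmgcs1: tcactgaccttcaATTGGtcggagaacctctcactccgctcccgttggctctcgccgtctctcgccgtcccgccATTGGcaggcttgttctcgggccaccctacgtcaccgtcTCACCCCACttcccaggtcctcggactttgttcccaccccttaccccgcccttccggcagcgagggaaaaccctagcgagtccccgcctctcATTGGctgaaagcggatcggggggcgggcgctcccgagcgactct
The sterol regulatory element letters lay 137 to 129 bases before the start, and 0.496% of the 32851 promoters in the table held them on either strand. The looser form TCACNCCAC, which includes the former, was held by 1.05%. The 3 CCAAT boxes of Hmgcs1 lay at 237 to 233, 176 to 172 and 45 to 41 bases before the start.

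A CCAAT box was found in all 4 promoters, where 33.8% of all promoters held one. The following 30-base windows show 1 such match in each gene, in capitals, so that the neighbouring letters can be compared.
Hmgcs1, chr13:119690294-119690323, + strand: tccccgcctctcATTGGctgaaagcggatc
Idi1, chr13:8885549-8885578, + strand: tgcctccagctgATTGGcgagcccgggcat
Cyp51, chr5:4104709-4104738, - strand: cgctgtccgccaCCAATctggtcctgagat
Lss, chr10:76531531-76531560, + strand: ggtgatgctctgATTGGccgagctcgcatc
The matches began 45, 45, 29 and 62 bases before the RefSeq start in this order. In the gene models of the expression values, Idi1 begins at 8885501 and Cyp51, on the - strand, at 4104746. The windows of these 2 genes therefore lie inside those models. A GC box (GGGCGG), the site of Sp1-type factors, was also found in all 4 promoters and in 32.7% of all promoters. The cAMP response element TGACGTCA was in none of the 4 promoters and in 1.55% of all promoters. Its core TGACG was in the promoters of Hmgcs1 and Cyp51 and in 17.8% of all promoters. These are matches of letters within the 250 bases before each start only.

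The levels of the 7 genes spanned a wide range. Averaged over all 8 libraries, Hmgcs1 was at 32.4 FPKM, Sqle at 15.4, Fdft1 at 13.9, Cyp51 at 7.40, Idi1 at 6.40, Lss at 4.49 and Fdps at 0.504 FPKM. FPKM is per length of the summed exons, and the levels are set beside each other on that scale only. The ranges of Sqle and Fdft1 overlapped, as did those of Cyp51 and Idi1. Idi1 and Lss did not overlap in the Ctrl libraries (6.29 to 8.03 against 4.02 to 5.02 FPKM) but did in the cKO libraries (4.99 to 6.78 against 3.83 to 5.24 FPKM). On this scale Hmgcs1 exceeded Sqle by 2.13 ± 0.345 times in the Ctrl and 2.10 ± 0.126 times in the cKO libraries.

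The order depends in part on the length used. The summed exons run from 3505 bases in Idi1 to 10787 bases in Lss, and they hold bases that a single transcript does not. Per length of the principal coding transcript, a scale chosen after the data were seen, Lss was at 10.6 ± 1.06 in the Ctrl libraries, above Cyp51 at 8.69 ± 2.63 and Idi1 at 8.43 ± 0.954, and Sqle at 32.0 ± 2.78 lay above Fdft1 at 16.8 ± 2.21. Hmgcs1 was highest and Fdps lowest on both scales. Per length of the principal transcript, Hmgcs1 was at 44.9 ± 8.11 in the Ctrl libraries, so it exceeded Sqle by less than on the summed exons.

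**Figure D1:**
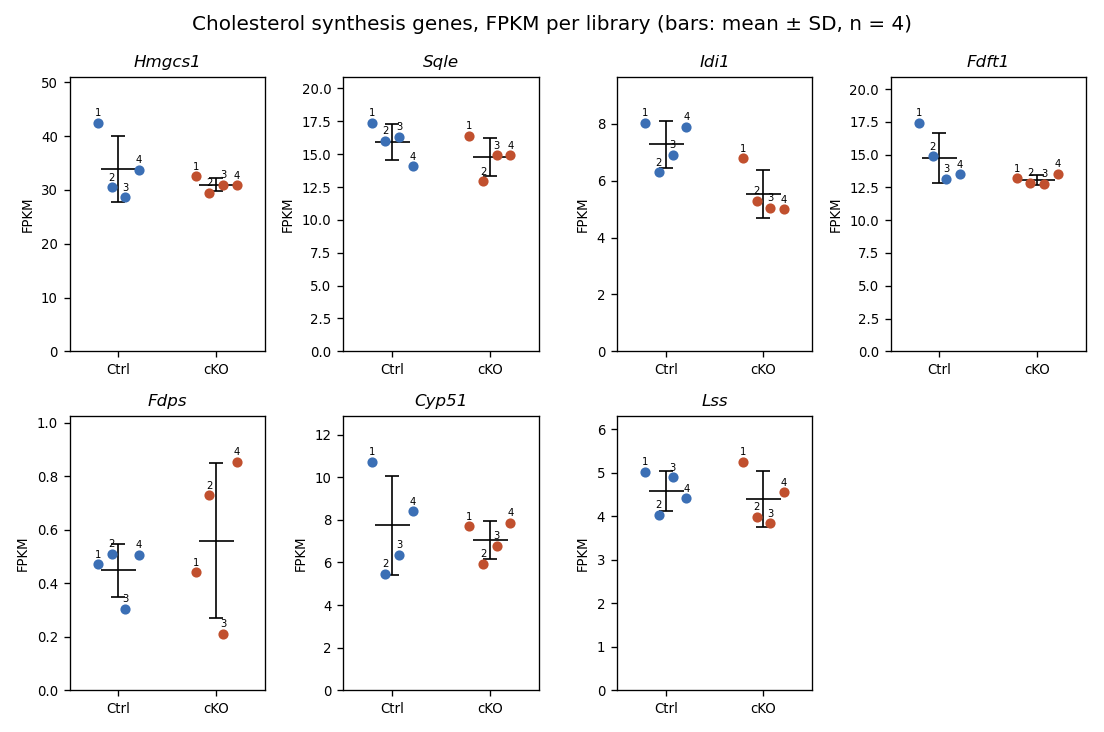
FPKM (vertical axes, from 0) of the 7 genes in each Ctrl (blue) and cKO (orange) library, numbered by replicate, with mean and SD (n = 4). Ctrl replicate 1 was the highest library in Hmgcs1, Sqle, Idi1, Fdft1 and Cyp51, and the groups overlapped in all 7 genes.

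No gene of the 7 was called between the groups. A call with limma over 12141 protein-coding genes needed a log2 fold change beyond 1 in either direction and an adjusted p below 0.05, and 2 genes in all, or 0.0165%, met it. With another tool, DESeq2, and the same thresholds, the study called more genes than this on the autosomes and none on the sex chromosomes. Of the 7 genes, 6 passed the filter of a mean above 1 FPKM in both groups. At an unadjusted p below 0.05, 1 of these 6, Idi1, was lower in the cKO libraries, beside 5.0% of all genes tested, and none was higher, beside 5.89%. The groups overlapped in each of the 6, where 2.59% of all genes did not overlap and were lower in the cKO libraries and 3.64% did not overlap and were higher. All 6 log2 fold changes were below 0, with a median of -0.11, where 48.0% of all genes tested were below 0 and their median was 0.01. Without Ctrl replicate 1, 4 of the 6 were below 0.

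Hmgcs1, the first enzyme of the 7, was at 42.5, 30.5, 28.6 and 33.7 FPKM in Ctrl replicates 1 to 4 and at 32.5, 29.5, 31.0 and 30.9 FPKM in cKO replicates 1 to 4. The cKO libraries lay within the range of the Ctrl libraries, and Ctrl replicate 1 was the highest of all. Its log2 fold change, cKO minus Ctrl on log2(FPKM + 0.1), was -0.11 ± 0.127 (SE), with a 95% interval of -0.39 to 0.17 and an adjusted p of 0.806 with limma. Without Ctrl replicate 1 the value was 0.0029. The SD was 6.12 FPKM in the Ctrl libraries, 2.56 FPKM without Ctrl replicate 1, and 1.23 FPKM in the cKO libraries. An antisense gene, Gm48342, covers 12.1% of its exon bases and was at most at 0.404 FPKM, and the use of strand in the counting is not given in the sources used here.

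Idi1, the isomerase, was at 8.03, 6.29, 6.92 and 7.89 FPKM in the Ctrl libraries and at 6.78, 5.29, 5.04 and 4.99 FPKM in the cKO libraries. The cKO libraries 2, 3 and 4 were below all Ctrl libraries, while cKO replicate 1 lay among them. The mean in the libraries labelled cKO was 0.759 of the Ctrl mean (5.53 ± 0.848 against 7.28 ± 0.824 FPKM). The log2 fold change was -0.40 ± 0.132 (SE), with a 95% interval of -0.69 to -0.10, an unadjusted p of 0.0135 and an adjusted p of 0.332 with limma, so it did not pass the test over all genes. An exact permutation test of this gene alone over the 70 assignments of the 8 libraries gave a two-sided p of 0.0571, where 0.0286 is the smallest possible. It was -0.35 without Ctrl replicate 1. The fold change was below 0 under all 20 alternatives, from -0.50 without cKO replicate 1 to -0.32 after rescaling to TPM, which sets each library to the same total. The unadjusted p was below 0.05 under 19 of them, and it was 0.0613 after rescaling to TPM. These values rest on 296 to 461 fragments per library. Of its 50-base stretches, 25.3% also occur in other genes, 17.7% in Gm13502 alone, and how the authors assigned such fragments is not given in the sources used here.

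Fdps, which makes farnesyl diphosphate, was the lowest of the 7 genes. It was at 0.471, 0.511, 0.304 and 0.508 FPKM in the Ctrl libraries and at 0.441, 0.729, 0.211 and 0.854 FPKM in the cKO libraries. The cKO libraries held both the highest and the lowest value. With 15 to 61 fragments per library it did not pass the filter, and it was not tested in the fit over all genes. Its difference of mean log2(FPKM + 0.1) was 0.16, and the exact permutation test gave a two-sided p of 0.714. Counting error alone (exact Poisson 95% intervals) spanned 0.118 to 0.349 FPKM in cKO replicate 3 and 0.653 to 1.10 FPKM in cKO replicate 4, so these 2 libraries of the same group differed by more than counting error.

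The low value of Fdps lies beside a feature of its gene model. In GENCODE vM21 (GRCm38), Fdps runs from 89093588 to 89101959 on chromosome 3, - strand. Of its exon bases 1124, or 26.7%, which hold 85.9% of its coding bases, also lie in exons of Gm43738. That gene is a protein-coding model on the same strand, from 89081939 to 89101099, and it was listed at 0 in all 8 libraries. Of the 50-base stretches of Fdps, 26.2% also occur in 8 other genes, with 23.4% in Gm43738 and 12.1% in Gm3571. Among protein-coding genes with 80% or more of their coding bases in another gene's exons, 80.8% of 567 genes had a mean under 1 FPKM, with a median of 0.0331 FPKM. Among those that share no coding base, 44.8% of 18080 genes did, with a median of 1.89 FPKM. Among those with a share above 0 and under 80%, 31.6% of 3271 genes did, with a median of 3.90 FPKM. Most of the other genes' coding bases are not shared, with 35.1% in Hmgcs1, 8.46% in Lss and 0 in Sqle, Idi1, Fdft1 and Cyp51. The part of this overlap and of the shared stretches in the level of Fdps was not tested, and the value of Fdps is uncertain as a level of the gene.

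Fdft1, squalene synthase, was at 17.4, 14.9, 13.2 and 13.5 FPKM in the Ctrl libraries and at 13.2, 12.8, 12.8 and 13.5 FPKM in the cKO libraries. Ctrl replicates 1 and 2 were above all cKO libraries, and the other 2 Ctrl libraries lay among them. Its log2 fold change was -0.16 ± 0.107 (SE), with a 95% interval of -0.40 to 0.08 and an adjusted p of 0.636 with limma, and it was -0.080 without Ctrl replicate 1. Of its exon bases 774, or 18.3%, lie in exons of Ctsb on the opposite strand. Ctsb, which encodes the lysosomal protease cathepsin B, was at 17.6 to 24.1 FPKM in the Ctrl and 24.0 to 32.4 FPKM in the cKO libraries. Without strand, fragments of the 2 genes in this stretch cannot be told apart, and at the mean level of Ctsb this stretch would hold fragments worth 3.72 FPKM of Fdft1 in the Ctrl and 5.07 FPKM in the cKO libraries, or 25.2% and 38.8% of its mean. The level and the fold change of Fdft1 are therefore uncertain.

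Sqle, squalene epoxidase, an oxygen-dependent control point of the pathway, was at 17.4, 16.0, 16.3 and 14.1 FPKM in the Ctrl libraries and at 16.4, 12.9, 14.9 and 14.9 FPKM in the cKO libraries. Its groups overlapped over most of their range. The log2 fold change was -0.11 ± 0.107 (SE), with a 95% interval of -0.35 to 0.13 and an adjusted p of 0.773 with limma. It was -0.065 without Ctrl replicate 1, -0.046 without cKO replicate 2 and -0.17 without Ctrl replicate 4. Sqle shares no exon base with another gene and 0.0358% of its 50-base stretches, the least of the 7.

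Lss, lanosterol synthase, was at 5.02, 4.02, 4.89 and 4.41 FPKM in the Ctrl libraries and at 5.24, 3.98, 3.83 and 4.55 FPKM in the cKO libraries. It was the only 1 of the 6 tested genes with its highest value in a cKO library, cKO replicate 1. The log2 fold change was -0.06 ± 0.132 (SE), with a 95% interval of -0.36 to 0.23 and an adjusted p of 0.901 with limma. It was -0.018 without Ctrl replicate 1, between -0.15 and -0.0014 as each library was left out, and 0.01 after rescaling to TPM.

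Cyp51, lanosterol demethylase, was at 10.7, 5.46, 6.36 and 8.40 FPKM in the Ctrl libraries and at 7.69, 5.93, 6.78 and 7.84 FPKM in the cKO libraries. It varied 1.96 times from the lowest to the highest library, and both ends of that range were Ctrl libraries. It varied 1.54 times without Ctrl replicate 1, where Idi1 varied 1.58 times. The log2 fold change was -0.09 ± 0.198 (SE), with a 95% interval of -0.53 to 0.35 and an adjusted p of 0.906 with limma. Without Ctrl replicate 1 it was 0.08.

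Some libraries stood at the ends of the range in several of the 6 tested genes. Ctrl replicate 1 was the highest library in 5 of the 6 genes and the next highest in the other, Lss, and over all genes tested it was the highest in 34.2%. At the other end, cKO replicate 2 was among the 2 lowest libraries in 5 of the 6, beside 18.1% of all genes, and cKO replicate 3 in 3 of the 6, beside 14.3%. The part of the library that stands apart in the values below 0 was not tested beyond leaving it out.

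**Figure D2:**
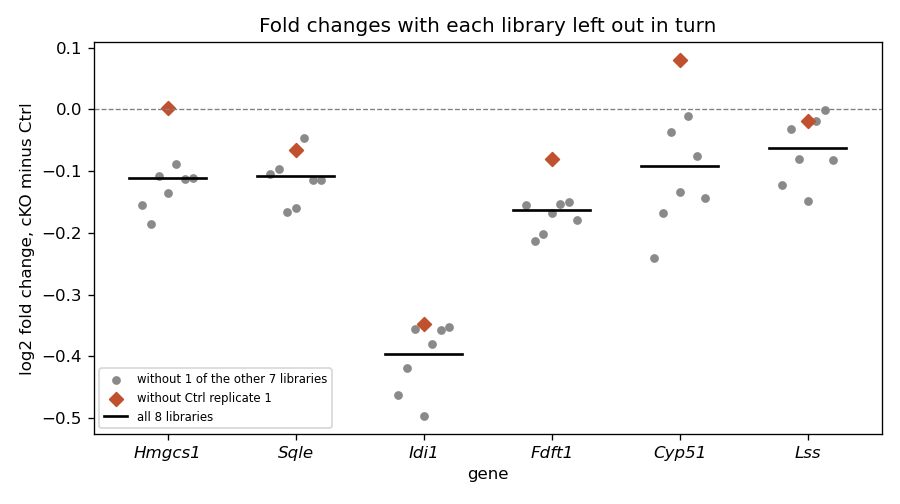
log2 fold change (cKO minus Ctrl, vertical axis) of the 6 tested genes with all 8 libraries (black lines), without Ctrl replicate 1 (orange diamonds) and without each of the other 7 libraries (grey points). Without Ctrl replicate 1, Hmgcs1 (0.0029) and Cyp51 (0.08) lay above 0, and Idi1 stayed between -0.50 and -0.35 whichever library was left out.

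The other 14 enzymes of cholesterol synthesis all passed the filter, and none was at an unadjusted p below 0.05 in either direction, beside 10.9% of all genes tested. Of their log2 fold changes 8 were above 0 and 6 below, where 48.0% of all genes were below 0, from -0.23 to 0.30 with a median of 0.08. Of the 9 enzymes of the isoprenoid branch, which make dolichol, ubiquinone and prenyl groups, none was at that p either, with a median of -0.06.

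Of 11 genes that control SREBP, 1 was at an unadjusted p below 0.05, Insig1, beside 10.9% of all genes tested, and 6 of the 11 fold changes were below 0. Insig1, which holds SREBP in the endoplasmic reticulum and is itself an SREBP target, was at 13.9, 14.5, 13.0 and 14.1 FPKM in the Ctrl libraries and at 17.2, 14.5, 15.5 and 17.2 FPKM in the cKO libraries. The groups met at 14.5 FPKM, and the log2 fold change was 0.21 ± 0.0947 (SE), with an unadjusted p of 0.0494 and an adjusted p of 0.458 with limma. The unadjusted p of Insig1 stayed below 0.05 in 9 of 20 alternatives, and in 2 of the 8 that leave out a library. Srebf2, the transcription factor gene, was at 20.1, 19.5, 20.3 and 20.2 FPKM in the Ctrl libraries and at 18.1, 22.0, 20.8 and 23.7 FPKM in the cKO libraries. The cKO libraries were on both sides of the Ctrl libraries, and the log2 fold change was 0.07 ± 0.102 (SE; adjusted p = 0.848 with limma).

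Among the lists of cholesterol genes, uptake and lysosomal release gave the most genes at an unadjusted p below 0.05. The lists were chosen with earlier results of these data known, so the counts and shares here are a description. Of 14 genes for receptors, their adaptors and the lysosomal release of cholesterol, 12 were tested, and 6 were higher in the libraries labelled cKO at that p, beside 5.89% of all genes tested. None was lower. Of the 12 log2 fold changes 11 were above 0, with a median of 0.27 against 0.01 over all genes. None passed the test over all genes, with adjusted p-values with limma of 0.280 to 0.915. Without Ctrl replicate 1, 5 of the 12 were at an unadjusted p below 0.05, all higher, and without cKO replicates 3 and 4 in turn the numbers were 2 and 3. In 4 of the 12, among them Lrp8, Npc2 and Stard3, the groups did not overlap, beside 3.64% of all genes.

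Lrp8, a receptor of apolipoprotein E and reelin, was at 10.4, 9.44, 7.61 and 8.10 FPKM in the Ctrl libraries and at 10.9, 11.3, 11.4 and 13.5 FPKM in the cKO libraries. Every cKO library was above every Ctrl library, and the log2 fold change was 0.41 ± 0.123 (SE), with an unadjusted p of 0.00769 and an adjusted p of 0.286 with limma.

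Npc2, which hands cholesterol to NPC1 in the lysosome, was at 14.9, 16.7, 15.1 and 16.0 FPKM in the Ctrl libraries and at 19.8, 17.9, 19.1 and 21.5 FPKM in the cKO libraries, again without overlap. Its log2 fold change was 0.32 ± 0.0935 (SE; adjusted p = 0.280 with limma). Its partner Npc1 had a log2 fold change of 0.06 (adjusted p = 0.915 with limma).

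Stard3, a sterol carrier of late endosomes, was at 10.2, 8.95, 9.44 and 8.42 FPKM in the Ctrl libraries and at 10.8, 10.6, 11.0 and 10.8 FPKM in the cKO libraries, with a log2 fold change of 0.22 ± 0.0921 (SE; adjusted p = 0.429 with limma). The lowest cKO library lay just above the highest Ctrl library, which was Ctrl replicate 1.

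In 2 receptor genes of the 6 the groups overlapped. Scarb1, the HDL receptor SR-BI, was at 14.8 ± 3.39 FPKM in the Ctrl and 19.0 ± 1.89 FPKM in the cKO libraries (log2 fold change 0.39 ± 0.170 SE, adjusted p = 0.451 with limma). Lrp1, an endocytic receptor of lipoprotein remnants, was at 17.0 ± 1.92 and 20.6 ± 2.55 FPKM (log2 fold change 0.27 ± 0.120 SE, adjusted p = 0.450 with limma).

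**Figure D3:**
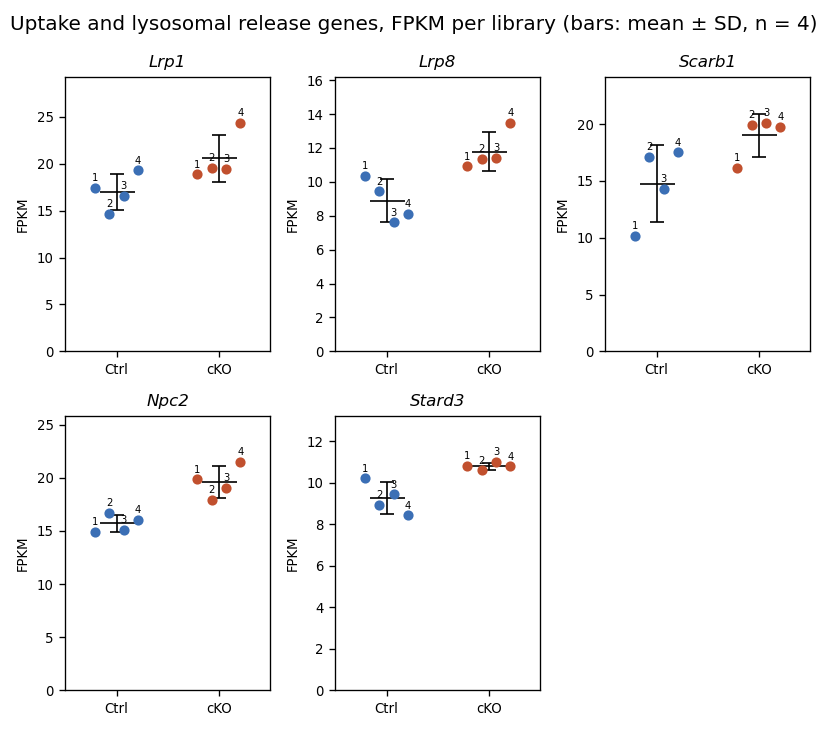
FPKM (vertical axes, from 0) of Lrp1, Lrp8, Scarb1, Npc2 and Stard3, uptake and lysosomal release genes at an unadjusted p below 0.05, in each Ctrl (blue) and cKO (orange) library, numbered by replicate, with mean and SD (n = 4). In Lrp8, Npc2 and Stard3 every cKO library was above every Ctrl library.

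Among 8 tested genes of cholesterol efflux, esterification and oxysterols, 1 was at an unadjusted p below 0.05, beside 10.9% of all genes tested. Apoe, the lipoprotein ligand of these receptors, was at 45.6, 35.3, 18.5 and 27.8 FPKM in the Ctrl libraries and at 45.7, 40.6, 40.3 and 55.0 FPKM in the cKO libraries. Ctrl replicate 1 lay at the level of the cKO libraries, and the log2 fold change was 0.58 ± 0.243 (SE; adjusted p = 0.442 with limma). Its unadjusted p stayed below 0.05 in 4 of the 8 alternatives that leave out a library, and no gene of this list was at that p without Ctrl replicate 3, cKO replicate 1 or cKO replicate 4. Abca1, which exports cholesterol, had a log2 fold change of 0.07.

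**Figure D4:**
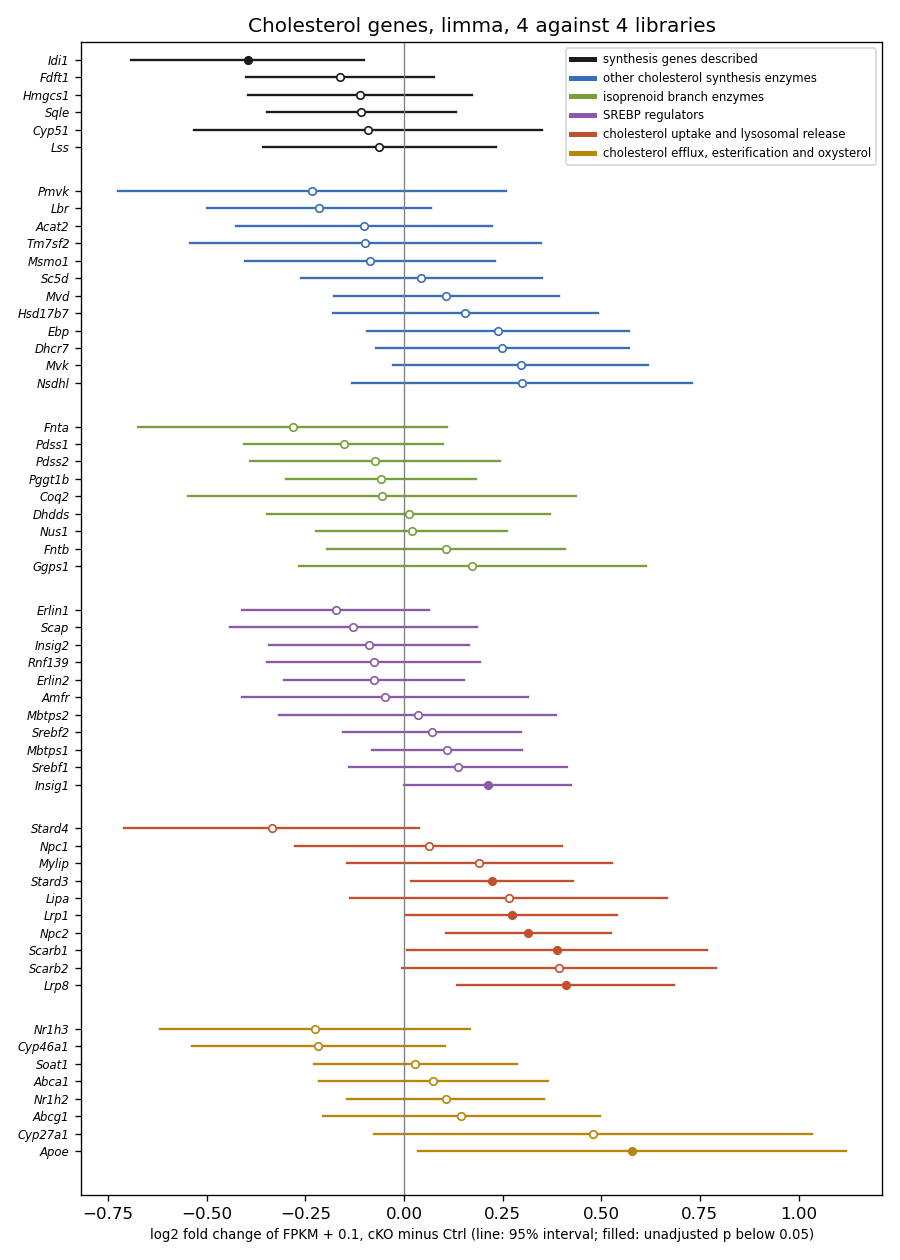
log2 fold change of FPKM + 0.1 (cKO minus Ctrl, horizontal axis) with 95% interval for the 6 tested genes of the 7 (black) and for other cholesterol genes, grouped by role. Filled points have an unadjusted p below 0.05. Idi1 is the one filled point below 0, and 5 of the 8 filled points belong to uptake and lysosomal release, while none of the genes drawn passed the test over all genes.

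Markers of other cell types of the testis were measured in the same libraries. Summed over 5 peritubular markers the level was 44.8 to 75.0 FPKM in the Ctrl and 74.0 to 104 FPKM in the cKO libraries, and 1 of the 3 tested, Acta2, was higher in the cKO libraries at an unadjusted p below 0.05, where 5.89% of all genes tested were higher and 5.0% lower. Acta2 held most of that sum, and the other 4 summed to 8.85 to 14.1 FPKM and 11.0 to 17.1 FPKM. The 5 endothelial markers summed to 7.94 to 14.3 FPKM and 13.8 to 17.7 FPKM (2 of 5 higher), and the 5 macrophage markers to 10.2 to 14.8 FPKM and 13.8 to 17.6 FPKM (2 of 4 higher). The 8 Sertoli markers summed to 994 to 1332 FPKM and 1330 to 1573 FPKM (0 of 8). Clu held most of that sum, and the other 7 summed to 276 to 391 FPKM and 316 to 385 FPKM. The 7 Leydig markers summed to 19.8 to 43.6 FPKM and 31.2 to 48.6 FPKM (2 of 4 higher). The 8 pachytene spermatocyte markers ran the other way, at 1380 to 2155 FPKM in the Ctrl and 1192 to 1797 FPKM in the cKO libraries (2 of 7 lower), and the 6 spermatid markers summed to 2.52 to 9.56 FPKM and 4.39 to 6.31 FPKM (0 of 1). The 6 spermatogonia markers summed to 173 to 223 FPKM and 214 to 223 FPKM (1 of 6 lower). Without Ctrl replicate 1, none of the 4 tested Leydig markers was higher and 1 was lower at an unadjusted p below 0.05. In the same setting 3 of the 8 Sertoli markers were higher and none was lower. Of the 5 endothelial markers none was at that p without Ctrl replicate 3 or without cKO replicate 4. The ranges of the sums overlapped in each list, none of these markers passed the test over all genes, and no list had a marker at 0 in all libraries. Clu alone did not overlap (718 to 940 FPKM in the Ctrl and 991 to 1188 FPKM in the cKO libraries), nor did Acta2 (36.0 to 60.8 and 63.1 to 87.1 FPKM). Of the 4 tested macrophage markers 1 was also higher in the cKO libraries without overlap. No tested marker of the other lists was without overlap, beside 3.64% of all genes that did not overlap and were higher. The part of the cell makeup in the fold changes of Idi1 and of the uptake genes was not tested.

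Genes with the most similar pattern over the 8 libraries were listed as a description. Closest to the mean of the 7 genes on log2(FPKM + 0.1), among 12041 genes outside the lists, were Trmt6 (Pearson's r 0.96), Qtrt2 (0.94), Nkiras1 (0.92), Phf14 (0.91) and Rnf169 (0.91). That mean includes Fdps, whose level is uncertain and which varied 4.04 times from the lowest to the highest library, the most of the 7. Closest to Hmgcs1 were Atp5mpl (0.99), Ddx50 (0.99) and Rad54l (0.98), and closest to Cyp51 were Zfp606 (0.97), Tm9sf3 (0.97) and Atf3 (0.96). In all 11 genes Ctrl replicate 1 was the highest library, for example 60.9 FPKM against 20.2 to 33.4 FPKM for Atp5mpl. Without that library r ranged from 0.79 (Rnf169) to 0.97 (Atf3).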

How the data were processed

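A company sequenced the libraries (paired ends), and its software made the FPKM values that the authors deposited per gene and library. The labels name GRCm38 and mm10, and the aligner, counter and use of strand are not given in the sources used here. The labels and the methods differ on the extraction kit and slightly on the tamoxifen times, and the times of the labels were used. FPKM multiplied by gene length gave whole fragments in 100% of values (tolerance 0.02), and the 54532 rows equalled those of the files per library. Gene models were compared with GENCODE vM21, which held 99.8% of the genes, 98.3% of these with the same start and end.

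Genes were tested with limma 3.58.1 in R 4.3.3 (lmFit, eBayes with trend) on log2(FPKM + 0.1), 4 against 4 libraries with no covariate, for the 12141 protein-coding genes whose mean exceeded 1 FPKM in both groups, with Benjamini-Hochberg adjustment. The pseudocount understates changes of low genes. The script was tested on simulated data. Each library counted as 1 sample, since even the closest pair had a chi-square of 4.61 per gene, where sampling noise gives about 1. The genes and lists were chosen with earlier results of these data known. The text names the 7 genes, list genes at an unadjusted p below 0.05, Srebf2, Insig1, the genes of most similar pattern, and Spdya, Ddx4 and Hspa2. Some list genes are counted but not reported here by name. Genes that overlap these or share stretches with them, Npc1, Abca1, Acta2 and Clu were named after their values were seen. Intervals of fragments cover counting error only. Alternatives were other pseudocounts, filters, scalings, weights, a replicate block, voom on the recovered fragments and each library left out.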

Additional observations from a re-analysis of the deposited data

Results flagged for a closer look

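In 4 of 38 groups of 4 libraries examined, 1 library lay far from the other 3, where chance gives about 1 in 20. Idi1 was at 6.78 FPKM in cKO replicate 1, and the other cKO libraries were at 4.99 to 5.29 FPKM. This library lies toward the Ctrl group, and without it the groups of Idi1 did not overlap. Scarb1 was at 16.2 FPKM in the same library, below the 19.8 to 20.1 FPKM of the other cKO libraries, and Lrp1 was at 24.4 FPKM in cKO replicate 4, above their 18.9 to 19.6 FPKM. The mitochondrial share of fragments in Ctrl replicate 1 was 0.464%, against 2.97% to 3.39% in the other Ctrl libraries.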

How the results depend on the processing

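No gene of the 7 was called under any of the 20 alternatives in which it was tested, which were 2 for Fdps, 19 for Lss and 20 for each other gene, and Idi1, Sqle and Fdft1 kept a log2 fold change below 0 under each. Leaving out each library in turn gave -0.50 to -0.35 for Idi1, -0.17 to -0.046 for Sqle, -0.21 to -0.080 for Fdft1, -0.19 to 0.0029 for Hmgcs1, -0.24 to 0.080 for Cyp51, -0.15 to -0.0014 for Lss and -0.060 to 0.48 for Fdps, which was not tested. Array weights, which gave Ctrl replicate 1 a weight of 0.161, turned Cyp51 to 0.083, and rescaling to TPM, which moved the median of all genes to 0.088, turned Lss to 0.014. The causes of these reversals were not tested. In counts at an unadjusted p below 0.05, rescaling to TPM left 0 of the 7 genes and gave 1 other synthesis enzyme. Array weights gave 1 other synthesis enzyme and 3 efflux genes. For SREBP regulators the count was 0 with a mean FPKM above 0.1, eBayes without trend or voom. Leaving out each library gave 0 to 1 SREBP regulators (higher without Ctrl replicate 1 or cKO replicate 2, but lower without cKO replicate 1, as with array weights), 0 to 2 efflux genes, 2 to 7 uptake genes, 0 to 1 isoprenoid enzymes, 0 to 2 other synthesis enzymes, and 0 to 1 of the 7 genes without overlap, the latter Idi1 without Ctrl replicate 2 or cKO replicate 1. With the replicate number as a block, the counts were 0 SREBP regulators, 2 efflux genes, 1 isoprenoid enzyme and 2 other synthesis enzymes, and Idi1 had an adjusted p of 0.194 with limma. Same-numbered libraries correlated at 0.0757 to 0.406 in their deviations, above 0 in all 4 pairs. The same was not computed for libraries of different numbers, so these values alone do not show whether a number marks a pair. The labels tie no number to a litter, and on that ground alone the mice were treated as unpaired. At 15 to 61 fragments per library, Fdps could not show a small difference.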
